A study of Mus musculus with 503 samples.

Results

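The nuclear genome encodes most subunits of the respiratory chain, and the counts of these genes were examined in single perivascular cells of the mouse spinal cord. Members were the gene symbols starting with Nduf (complex I), Sdha to Sdhd (complex II), Uqcr (complex III) or Cox4 to Cox8 (complex IV, cytochrome c oxidase) in the deposited count matrix. Of 94 symbols with such a name, 65 of the 56701 genes were kept: 36 of complex I, 4 of complex II, 8 of complex III and 17 of complex IV. *Ndufa4*, named for complex I but now assigned to cytochrome c oxidase, was placed with complex IV. Left out were 12 assembly factors, the Sdhaf genes among them, 8 pseudogene symbols, *Ndufa4l2*, and 8 symbols without a count on 1 of the plates (plate 211). Members were chosen by name, and no measured value other than a count on that plate was used.

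Cells came from adult GLAST-CreERT2;R26R-tdTomato;Pdgfrb-eGFP mice, labelled as female, in which tamoxifen induces tdTomato in cells that used the GLAST (*Slc1a3*) promoter and EGFP reports the promoter of *Pdgfrb*. EGFP+ cells with tdTomato (tdTomato+EGFP+) or without it (tdTomato-EGFP+) were sorted from uninjured cord or from the crushed segment 3 days after a complete spinal crush (SCI). The sample labels state 3 days where the text of the series states 5 days, and the labels were followed. All groups carried the same 3 transgenes and had their meninges removed before dissociation, and tdTomato marks a history of recombination rather than a cell type. Each deposited sample is 1 cell, sequenced by Smart-seq3 (full-length transcripts), and no label names an animal. Each of the 4 groups was therefore treated as 1 sample, without a test or a p-value between groups. Where 4 values are given for the groups, they stand in the order uninjured tdTomato+EGFP+ and tdTomato-EGFP+, then injured tdTomato+EGFP+ and tdTomato-EGFP+. Uninjured cells lay on plates 209 and 213 and injured cells on plates 211 and 215, so that injury and plate cannot be told apart, whereas both sorted populations lay on every plate.

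The respiratory chain passes electrons from NADH through complex I, or from succinate through complex II, to ubiquinone, then through complex III and cytochrome c to complex IV, which reduces oxygen. Complexes I, III and IV pump protons across the inner mitochondrial membrane and are built from subunits of both genomes, while complex II is wholly nuclear encoded and is also an enzyme of the TCA cycle. Several complex IV subunits exist as isoforms from separate genes. *Cox4i2*, the alternative form of *Cox4i1*, is known from lung and vascular mural cells, where it has been linked to oxygen sensing.

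After quality control 468 of 503 cells remained. Uninjured tdTomato+EGFP+ cells numbered 65 on plate 209 and 72 on plate 213, and uninjured tdTomato-EGFP+ cells 46 and 60. Injured tdTomato+EGFP+ cells numbered 88 on plate 211 and 34 on plate 215, and injured tdTomato-EGFP+ cells 58 and 45. The 4 groups held 38406035, 26887338, 31133429 and 25645409 counts. For each group the counts of its cells were added up and expressed per 1000000 counts (CPM), in which fewer cells of a type and less RNA per cell cannot be told apart. Plates were uneven in depth: the 34 injured tdTomato+EGFP+ cells of plate 215 held 1677209 counts at a median of 14770 per cell, against 29456220 counts in the 88 cells of plate 211. The sums of that group therefore follow plate 211, and values are given by plate. Plate 211 also used other gene symbols: 3496 symbols with counts on the other 3 plates had none there, and 4210 had counts only there. *Slc1a3* was at 211.5, 31.5, 206.5 and 10.7 CPM and *Pdgfrb* at 1503, 1881, 1213 and 2491 CPM in the 4 groups. The summed level of 9 pericyte markers was 10981, 12137, 822 and 11402 CPM, and that of 8 perivascular fibroblast markers 4214, 2205, 21865 and 9659 CPM. Injured tdTomato+EGFP+ cells thus held the fewest pericyte and the most fibroblast marker counts. The sums of 5 astrocyte, 5 immune and 5 oligodendrocyte lineage markers were at or below 280 CPM in every group, and the 5 endothelial markers were at 3633, 3867, 344 and 1456 CPM.

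Summed over all 65 members, the nuclear-encoded respiratory chain took 8838, 8725, 8395 and 9246 CPM in the 4 groups. Complex I was at 4308, 4134, 3579 and 4203 CPM, lowest in injured tdTomato+EGFP+ cells, and complex II at 1094, 1244, 1033 and 1168 CPM. Complex III stood at 1450 and 1448 CPM in the uninjured groups, against 1616 and 1699 CPM after injury. Complex IV stood at 1985 and 1899 CPM before and at 2167 and 2177 CPM after injury. After thinning each cell to 20000 counts, the median cell had a count for 47, 45, 50 and 48.5 of the 65 members in the 4 groups.

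**Figure D1:**
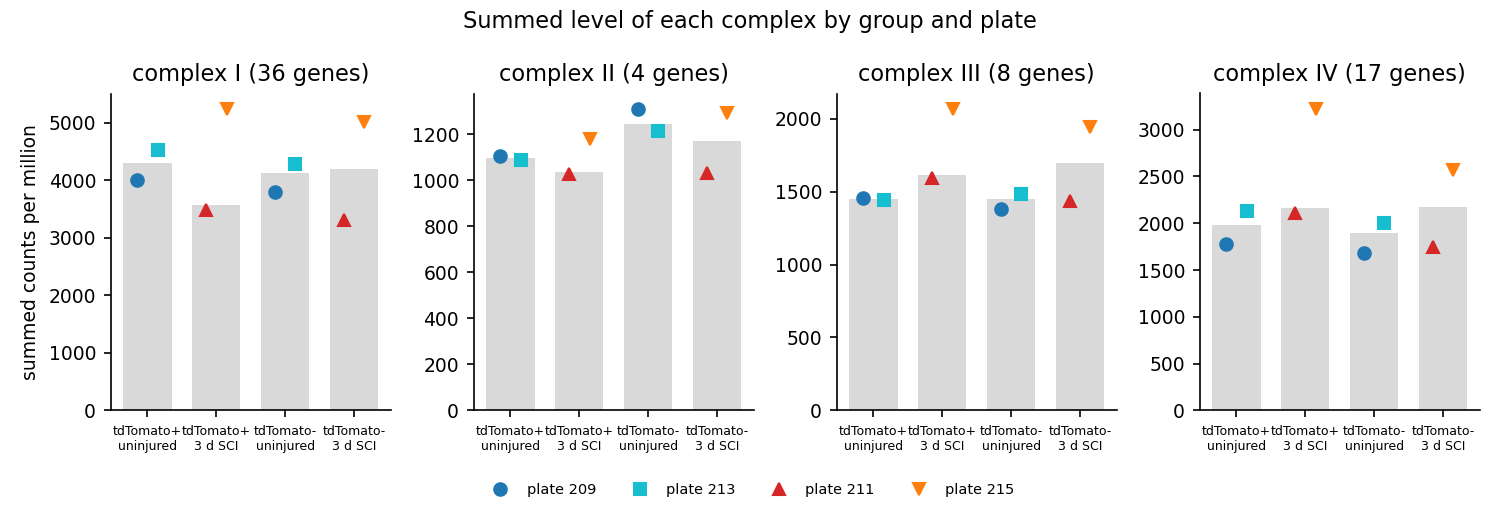
Summed level of the members of each complex (y axis, CPM) in the 4 groups, with grey bars for the group sum and points for each plate. In both injured groups plate 215 lies above plate 211 in all 4 panels, and complex IV ranges from 1678 CPM on plate 209 to 3226 CPM on plate 215.

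The 2 plates of injured cells differed more than the group sums did in complexes I, III and IV. In injured tdTomato+EGFP+ cells complex I was at 3484 CPM on plate 211 and 5250 CPM on plate 215, and complex IV at 2106 and 3226 CPM. In injured tdTomato-EGFP+ cells complex I was at 3304 and 5018 CPM and complex IV at 1742 and 2571 CPM on the same plates. Among the 60 members that passed the filter on low levels described below, 53 were higher on plate 215 than on plate 211 in tdTomato+EGFP+ cells and 57 in tdTomato-EGFP+ cells. The median plate difference on the log2(CPM + 1) scale was 0.59 and 0.66, against 0.15 and 0.28 over all genes tested. The uninjured plates differed by less, with medians of 0.26 and 0.27 for plate 213 against plate 209. Complex II moved least between plates, by 0.03 and -0.14 in the uninjured and 0.34 and 0.36 in the injured groups. Members are short, with a median annotated exon length of 1429.5 bases against 4625 bases over all genes tested, and the 233 genes under 1000 bases differed between plates 215 and 211 by a median of 0.39 and 0.54. The part of transcript length in these plate differences was not tested.

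*Cox4i2* differed more between groups than any other member. Its coding sequence is set beside that of *Cox4i1* to show how much sequence the 2 isoforms share. Whether reads were split between them was not tested. The coding sequences are 510 bases (*Cox4i1*) and 519 bases (*Cox4i2*) in the GENCODE M21 transcripts, and were identical at 329 of 490 aligned positions, or 67.1%. The stretch around the longest run the 2 genes share, in capitals and 14 bases long, reads as follows, counted from the first base of the coding sequence (positions 255 to 348 in *Cox4i1* and 264 to 357 in *Cox4i2*).
Cox4i1: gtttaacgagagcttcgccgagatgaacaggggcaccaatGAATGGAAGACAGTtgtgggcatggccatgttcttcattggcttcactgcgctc
Cox4i2: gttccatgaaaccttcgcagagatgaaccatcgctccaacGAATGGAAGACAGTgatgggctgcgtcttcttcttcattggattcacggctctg
On the mm10 assembly *Cox4i2* spans chr2:152754173-152765037 on the plus strand, with 788 annotated exon bases, and *Cox4i1* spans chr8:120668222-120674207 on the plus strand, with 1550 exon bases.

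On plates 209 and 213, *Cox4i2* stood at 219.8 and 243.2 CPM in uninjured tdTomato+EGFP+ and at 217.8 and 262.1 CPM in uninjured tdTomato-EGFP+ cells. On plates 211 and 215 it stood at 6.0 and 1.2 CPM in injured tdTomato+EGFP+ and at 110.7 and 141.5 CPM in injured tdTomato-EGFP+ cells. Both injured tdTomato+EGFP+ plates lay below all others, and both injured tdTomato-EGFP+ plates lay between them and the uninjured plates. The group sums were 233.4 CPM (95% Poisson interval 228.6 to 238.3), 247.9 CPM (242.0 to 253.9), 5.78 CPM (4.97 to 6.69) and 126.9 CPM (122.6 to 131.3). These intervals, like all others here, cover counting error only. Those taken from counts treat each count as an independent molecule and are too narrow if the counts are reads. One injured tdTomato+EGFP+ cell held 21.1% of the 180 *Cox4i2* counts of its group.

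*Cox4i1*, the ubiquitous form, was at 387, 390, 484 and 480 CPM in the 4 groups. Its plates ranged from 368 to 400.5 CPM in uninjured cells and from 427 to 682 CPM in injured cells, without overlap. *Cox4i2* therefore made up 37.6% of the Cox4 counts in uninjured tdTomato+EGFP+ cells (95% exact binomial interval 36.99 to 38.2) and 38.9% in uninjured tdTomato-EGFP+ cells (38.1 to 39.6). Its share was 1.18% (1.01 to 1.36) in injured tdTomato+EGFP+ and 20.9% (20.3 to 21.6) in injured tdTomato-EGFP+ cells. The share was alike on both plates of each group except injured tdTomato+EGFP+ cells, where it was 1.26% and 0.175%, the latter from 2 counts. Per kilobase of annotated exon, *Cox4i2* stood at 296 and 315 CPM in uninjured tdTomato+EGFP+ and tdTomato-EGFP+ cells, above *Cox4i1* at 250 and 252 CPM. After injury *Cox4i2* stood at 7.34 and 161 CPM, below *Cox4i1* at 312 and 310 CPM. By CPM alone *Cox4i1* was above *Cox4i2* in every group. The scaled order rests on all annotated exon bases, which differ more between the isoforms than their coding sequences do. Whether counts are reads or molecules is not given, so which isoform had more transcripts before injury was not settled.

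**Figure D2:**
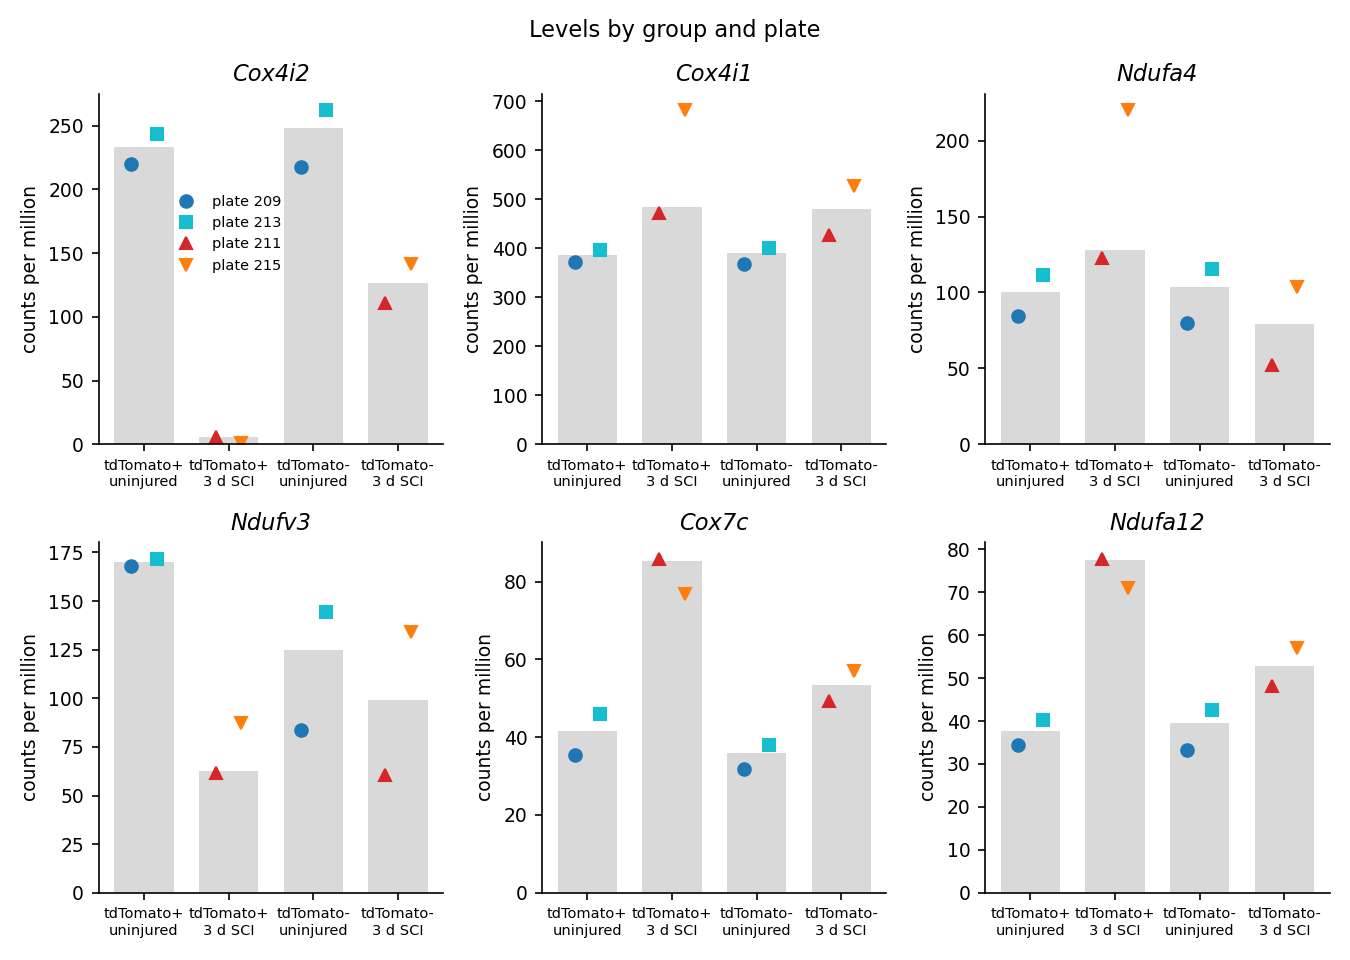
Levels of 6 member genes (y axes, CPM) in the 4 groups, with bars for group sums and points for plates. *Cox4i2* is at 5.78 CPM in injured tdTomato+EGFP+ cells against 126.9 to 247.9 CPM elsewhere, and *Cox7c* and *Ndufa12* are highest in that group.

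The share of cells with a *Cox4i2* count was lowest in the same group. After thinning to 20000 counts it was 76.4% (97 cells) and 83.7% (77 cells) in uninjured tdTomato+EGFP+ and tdTomato-EGFP+ cells. After injury it was 7% (7 of 100 cells, 95% exact binomial interval 2.86 to 13.9) and 64.7% (66 cells). At full depth these shares were 77.4%, 75.5%, 18.9% and 73.8%. *Cox4i1* was counted in 98.4%, 97.8%, 100% and 100% of the thinned cells.

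*Cox4i2* was set beside the pericyte markers, whose summed level was also lowest in injured tdTomato+EGFP+ cells. In tdTomato-EGFP+ cells the markers summed to 12535 and 11949 CPM on plates 209 and 213 and to 16076 and 7159.7 CPM on plates 211 and 215, so that they overlapped where *Cox4i2* was lower on both injured plates. Each cell was placed in the range of the marker list (pericyte, perivascular fibroblast or vSMC) with the highest mean level, which is a range of a score and not a cell type. The pericyte range held 74.5%, 71.7%, 4.92% (6 cells) and 65.05% of the cells of the 4 groups. The fibroblast range held 20.4% (28 cells), 10.4% (11 cells), 94.3% (83 cells of plate 211 and 32 of plate 215) and 29.1% (30 cells), and 0 to 5 cells per range and group lay near the cut. The vSMC range held 5.11% (7 cells), 17.9% (19 cells), 0.82% (1 cell) and 5.83% (6 cells). In the vSMC range *Cox4i2* was at 377 and 200 CPM in the uninjured groups and 150 CPM in injured tdTomato-EGFP+ cells. All members summed there to 11258, 11174 and 10931 CPM. Within the pericyte range *Cox4i2* was at 293, 288, 80.4 (6 cells) and 184 CPM in the 4 groups. Plates 209 and 213 gave 247 and 306 CPM and plates 211 and 215 gave 154.1 and 215.0 CPM in the tdTomato-EGFP+ cells of that range. The pericyte markers of the same cells summed to 16148 and 14522 CPM on plates 209 and 213. On plates 211 and 215 they summed to 22932 and 10855 CPM, so the range does not hold the marker level fixed.

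Within the fibroblast range *Cox4i2* was at 17.2 CPM in the uninjured and 2.29 CPM in the injured tdTomato+EGFP+ population, and 1 cell gave 64.5% of the former counts. Its level was 0, from 11 cells, in the uninjured and 5.29 CPM in the injured tdTomato-EGFP+ population, and 1 cell gave 66.7% of the latter counts. After thinning, 94.7% (90 of 95), 97.01% (65 of 67), 5 of 5 and 89.4% (59 of 66) of the pericyte-range cells of the 4 groups had a *Cox4i2* count. In the fibroblast range the shares were 3.85% (1 of 26), 0 of 9 cells, which allows a share of up to 33.3%, 2.11% (2 of 95) and 6.67% (2 of 30). Median full depth was 182555 to 278846 counts per cell in the pericyte and fibroblast ranges of every group. The part of the marker ranges in the group difference of *Cox4i2* was not tested beyond these values.

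**Figure D3:**
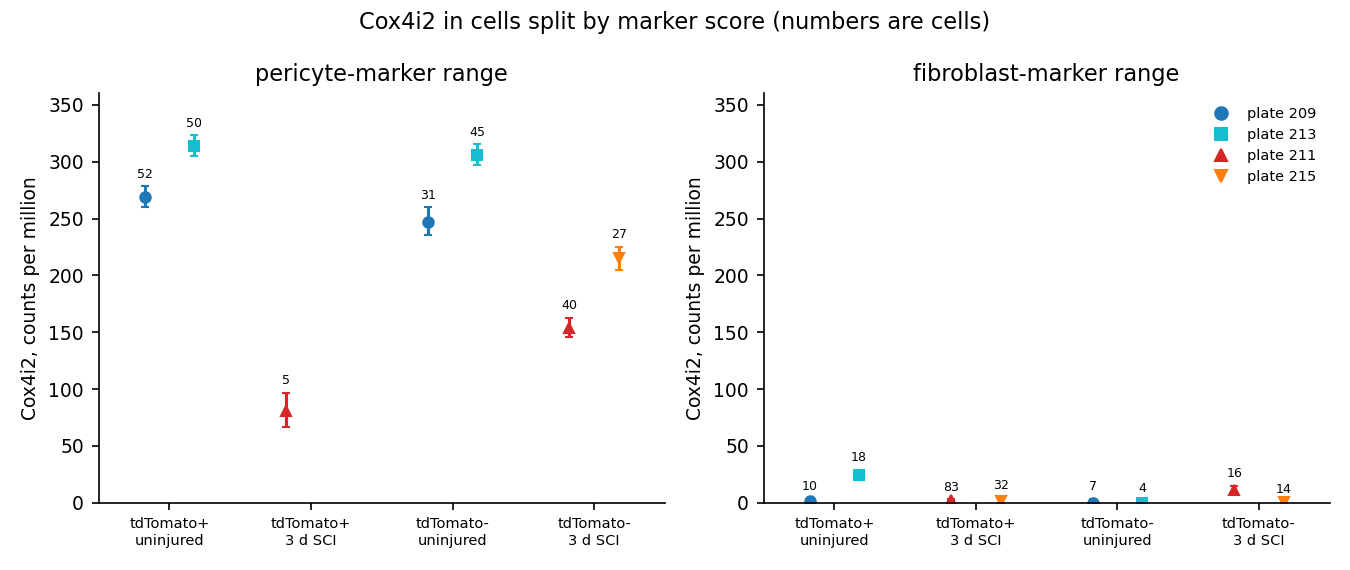
*Cox4i2* level (y axis, CPM, with 95% Poisson intervals) in cells of the pericyte-marker range (left) and fibroblast-marker range (right) by group and plate, with the number of cells above each point. Points of the pericyte range lie between 80.4 and 314 CPM and those of the fibroblast range at or below 24.7 CPM, and the 1 pericyte-range cell among injured tdTomato+EGFP+ cells of plate 215 is not drawn.

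For differences between groups, 10262 genes with a mean of 10 CPM or more over the 4 groups and a count on every plate were compared on the log2(CPM + 1) scale, 60 members among them. *Cox6b2*, *Cox7a1*, *Cox7b2*, *Cox8b* and *Ndufb4* did not pass. A gene was called where the group sums differed by 1 or more and the sign was the same on every plate, or, for injury, in all 4 pairings of 1 injured with 1 uninjured plate. This is a rule of size and not a test. The comparisons share groups, so that they are not independent of each other.

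Between the sorted populations of uninjured cord, 0 members were called higher and 0 lower in tdTomato+EGFP+ cells, where 3.63% of all genes tested were called higher and 2.51% lower. The median over the members was 0.07, against 0.01 over all genes, and 0.10 on either plate. Complex I had a median of 0.12, complex III of 0.08 and complex IV of 0.01 (-0.03 with DESeq2 size factors), and the 4 complex II genes had a median of -0.28. *Ndufab1*, the mitochondrial acyl carrier protein that is both a complex I subunit and part of fatty acid synthesis, was at 66.9 and 77.8 CPM in tdTomato+EGFP+ and at 53.03 and 31.1 CPM in tdTomato-EGFP+ cells of plates 209 and 213, a difference of 0.92 (0.33 and 1.30 by plate). *Ndufa6*, which binds that carrier protein, was at 95.8 and 136.8 CPM against 80.1 and 83.1 CPM (difference 0.54). *Ndufa3*, a small accessory subunit, was at 53.4 against 37.01 CPM (0.52).

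The largest differences in the other direction were in an iron-sulfur subunit and the membrane anchors of complex II. *Ndufs1*, the largest iron-sulfur protein of complex I, was at 163.3 and 121.99 CPM in tdTomato+EGFP+ and at 273 and 156.6 CPM in tdTomato-EGFP+ cells (-0.48, with -0.74 and -0.36 by plate). *Sdhd* was at 165 against 218 CPM (-0.40) and *Sdhc* at 68.6 against 88.3 CPM (-0.36). *Cox4i2* differed by -0.09 in this comparison, with 1 plate at -0.11 and the other at 0.01.

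Within the pericyte range of uninjured cells, 51 of the 60 members were above 0 in tdTomato+EGFP+ against tdTomato-EGFP+ cells, with a median of 0.22 against 0.03 over all genes. All 8 complex III members and all 13 of complex IV were above 0 there, with medians of 0.27 and 0.25, while complex II was at -0.13. *Ndufab1* had a difference of 1.28 in that range. The fibroblast range, with 28 against 11 cells, had 26 of 60 members above 0 and a median of -0.06 against 0.14 over all genes, with complex III at 0.00 and complex IV at -0.07.

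At 3 days after SCI, 1 member, *Cox4i2*, was called lower in tdTomato+EGFP+ than in tdTomato-EGFP+ cells and 0 were called higher, where 19% of all genes tested were called lower and 3.65% higher. The difference of *Cox4i2* was -4.24 in the sums, -3.99 on plate 211 and -6.02 on plate 215. Over the other members the sums and the plates gave opposite signs. The median of the group sums was -0.18, against -0.33 over all genes tested, but it was 0.21 on plate 211 and 0.18 on plate 215, against -0.20 and -0.26 over all genes. On both plates 38 of the 60 members were higher in tdTomato+EGFP+ cells and 10 were lower, although 41 were lower in the group sums. Plate 211, on which members are lower in both populations, held most counts of injured tdTomato+EGFP+ cells but 12201222 of the 25645409 counts of injured tdTomato-EGFP+ cells. With TMM or DESeq2 size factors in place of total counts the median over members was 0.19 or 0.34, above that of all genes as before.

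Complex IV had the highest median on both plates, 0.45 on plate 211 and 0.36 on plate 215, followed by complex III (0.31 and 0.22), complex I (0.13 and 0.13) and complex II (-0.06 and -0.15). In the group sums within the fibroblast and pericyte ranges, complex IV had medians of 0.00 and -0.02, against -0.16 and -0.31 over all genes. By plate, complex IV of the fibroblast range was at 2106 and 3203 CPM in tdTomato+EGFP+ and at 1593 and 2606 CPM in tdTomato-EGFP+ cells. *Ndufa4* was at 122.8 and 220.0 CPM in tdTomato+EGFP+ and at 51.96 and 103.8 CPM in tdTomato-EGFP+ cells of plates 211 and 215. Within either plate it was higher in tdTomato+EGFP+ cells, by 1.23 and 1.08, while the group sums differed by 0.69, below the size for a call. *Ndufa4l2*, its paralog that is induced by low oxygen in other cells and was no member, went the opposite way at 28.2 CPM against 338 CPM. In the group sums within the marker ranges the difference of *Ndufa4* was not kept. It was -0.25 in the fibroblast range and 0.12 in the pericyte range, the latter with 6 tdTomato+EGFP+ cells. *Cox7c*, a small structural subunit of complex IV, differed by 0.67 (0.79 and 0.42 by plate), and *Ndufa12*, an accessory subunit of the peripheral arm of complex I, by 0.54 (0.68 and 0.31).

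A core subunit of complex I was on the other side by total counts. *Ndufv1*, which carries the flavin that accepts electrons from NADH, was at 167 and 172 CPM in tdTomato+EGFP+ and at 199 and 293 CPM in tdTomato-EGFP+ cells of plates 211 and 215 (-0.57 in the sums, -0.25 and -0.77 by plate). With TMM or DESeq2 size factors *Ndufv1* stood at -0.19 or -0.04, while the median of all genes went from -0.33 to 0.04 or 0.18.

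**Figure D4:**
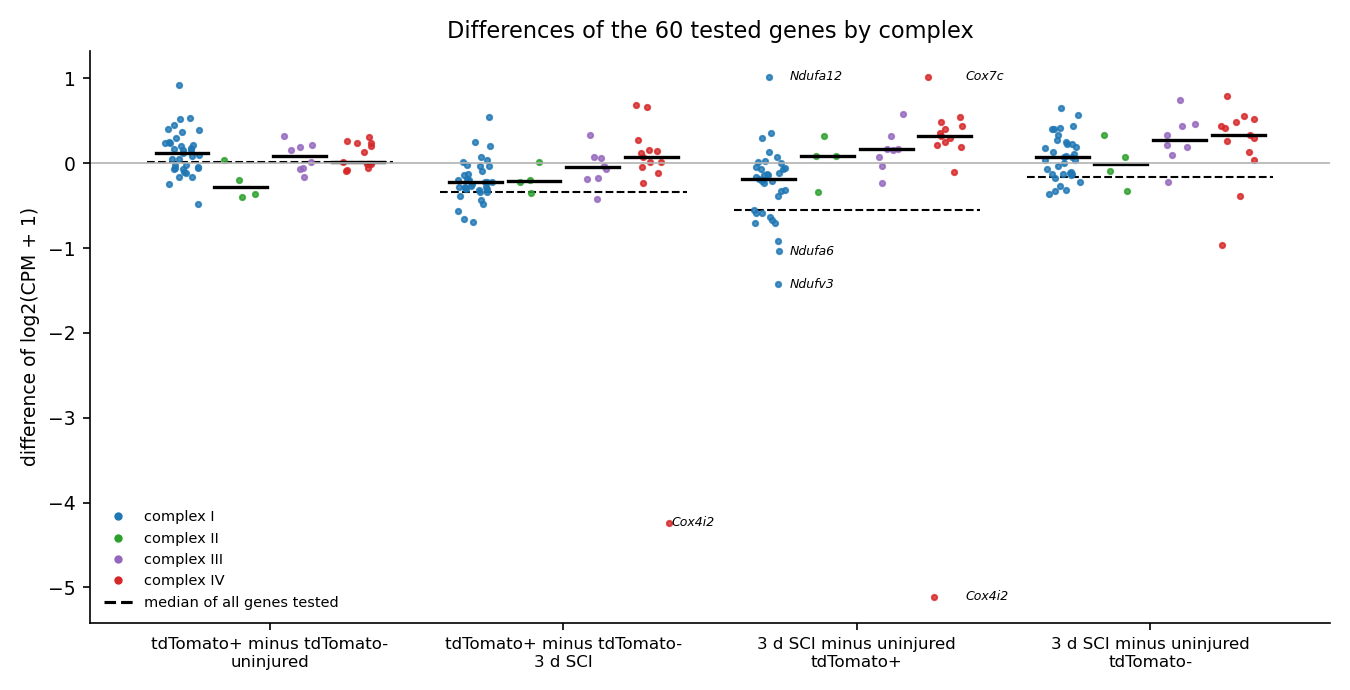
Differences of log2(CPM + 1) for the 60 tested members (points, by complex) in 4 comparisons, with solid lines for the complex median and dashed lines for the median of all 10262 genes tested. *Cox4i2* lies at -4.24 and -5.11 in the comparisons that hold injured tdTomato+EGFP+ cells, far below every other member.

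After injury, tdTomato+EGFP+ cells had 3 members called lower (*Cox4i2*, *Ndufv3* and *Ndufa6*) and 2 called higher (*Cox7c* and *Ndufa12*), where 32.9% of all genes tested were called lower and 10.4% higher. With TMM or DESeq2 size factors 9 or 17 members were called higher, where 20.8% or 23.97% of all genes were. The median over members was -0.05 and that over all genes -0.55, a distance of 0.51, and 50 of the 60 members lay above the median gene. By plate pair the median ran from -0.19 (plate 211 against 213) to 0.66 (plate 215 against 209), so its sign depended on the pair. With TMM or DESeq2 size factors it was 0.62 or 0.76, with all genes at 0.12 or 0.26.

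The medians differed by complex. Complex IV had a median of 0.32 in the sums (0.24 to 1.20 over the plate pairs) with 11 of 13 members above 0, complex III of 0.16 (0.02 to 0.67) with 6 of 8, complex II of 0.08 (-0.10 to 0.55) with 3 of 4, and complex I of -0.19 (-0.32 to 0.51) with 8 of 35. This order did not hold throughout: for plate 215 against 213 complex II (0.23) lay below complex I (0.24), and in the pericyte range, with 6 injured cells, complex II was at 0.21, complex III at 0.18, complex IV at 0.07 and complex I at -0.21. Complex I was above 0 with TMM or DESeq2 size factors (0.48 or 0.61), and the other complexes stayed above it at 0.75 or 0.89 (complex II), 0.83 or 0.97 (complex III) and 1.00 or 1.14 (complex IV).

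*Cox4i2* had a difference of -5.11 (-6.80 to -4.97 over the plate pairs). *Ndufv3*, an accessory subunit of the NADH-oxidising module, stood at 168 and 172 CPM before and at 61.3 and 87.05 CPM after injury, a difference of -1.43 (-1.47 to -0.94). *Ndufa6* was at 95.8 and 136.8 CPM before and at 56.3 and 82.3 CPM after injury, a difference of -1.04 (-1.27 to -0.22). By the rule for a call, neither gene's plates could overlap between uninjured and injured cells. *Ndufv3* and *Ndufa6* were below the size for a call with TMM (-0.76 and -0.37) and DESeq2 size factors (-0.62 and -0.24). Without plate 211 the 2 genes stood at -0.96 and -0.53, and without plate 213 *Ndufa6* stood at -0.72, also below that size. *Ndufa12* was at 34.3 and 40.1 CPM before and at 77.8 and 70.95 CPM after injury (1.02, 0.81 to 1.16). *Cox7c* was at 35.5 and 46.1 CPM before and at 85.9 and 76.9 CPM after injury (1.02, 0.73 to 1.25). As called genes, these 2 could not overlap between conditions either. In tdTomato+EGFP+ cells, unlike most members, they were no higher on plate 215 than on plate 211. Both were close to the size for a call, at 0.88 (*Cox7c*) and 0.93 (*Ndufa12*) without plate 209 and at 0.87 and 0.89 without plate 211. On plates 209, 213 and 215 the pseudogene symbols *Cox7c-ps1* and *Ndufa12-ps* held at most 12 and 17 counts, where *Cox7c* and *Ndufa12* held 845 to 1721 and 840 to 1672. Neither symbol had a count on plate 211, which used other symbols, so reads of these copies cannot be told apart there from those of the genes. *Uqcr11*, a small subunit of complex III, was at 80.4 CPM before and 120.7 CPM after injury (0.58, 0.40 to 1.10).

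Because injured tdTomato+EGFP+ cells lay almost wholly in the fibroblast range, the same comparison was made within that range, where 28 cells were uninjured. Complex IV was at 1219 and 1548 CPM on the uninjured plates and at 2106 and 3203 CPM on the injured plates, and complex III at 1101 and 1016 against 1579 and 2063 CPM, both without overlap. Complex I was at 3611 against 3563 CPM and complex II at 1117 against 1026 CPM in the sums. The median difference was 0.61 for complex IV (12 of 13 members above 0), 0.51 for complex III (8 of 8), 0.02 for complex I and -0.02 for complex II, where the median over all genes was -0.36. Within the range *Cox7c* differed by 1.36, *Ndufab1* by 1.33, *Ndufa12* by 1.10, *Ndufa6* by -0.87 and *Ndufv3* by -1.59. *Cox4i2* differed by -2.47 in the sums of that range, but its plates overlapped, at 1.73 and 24.7 CPM before and 2.35 and 1.20 CPM after injury, and most of its uninjured counts came from 1 cell.

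**Figure D5:**
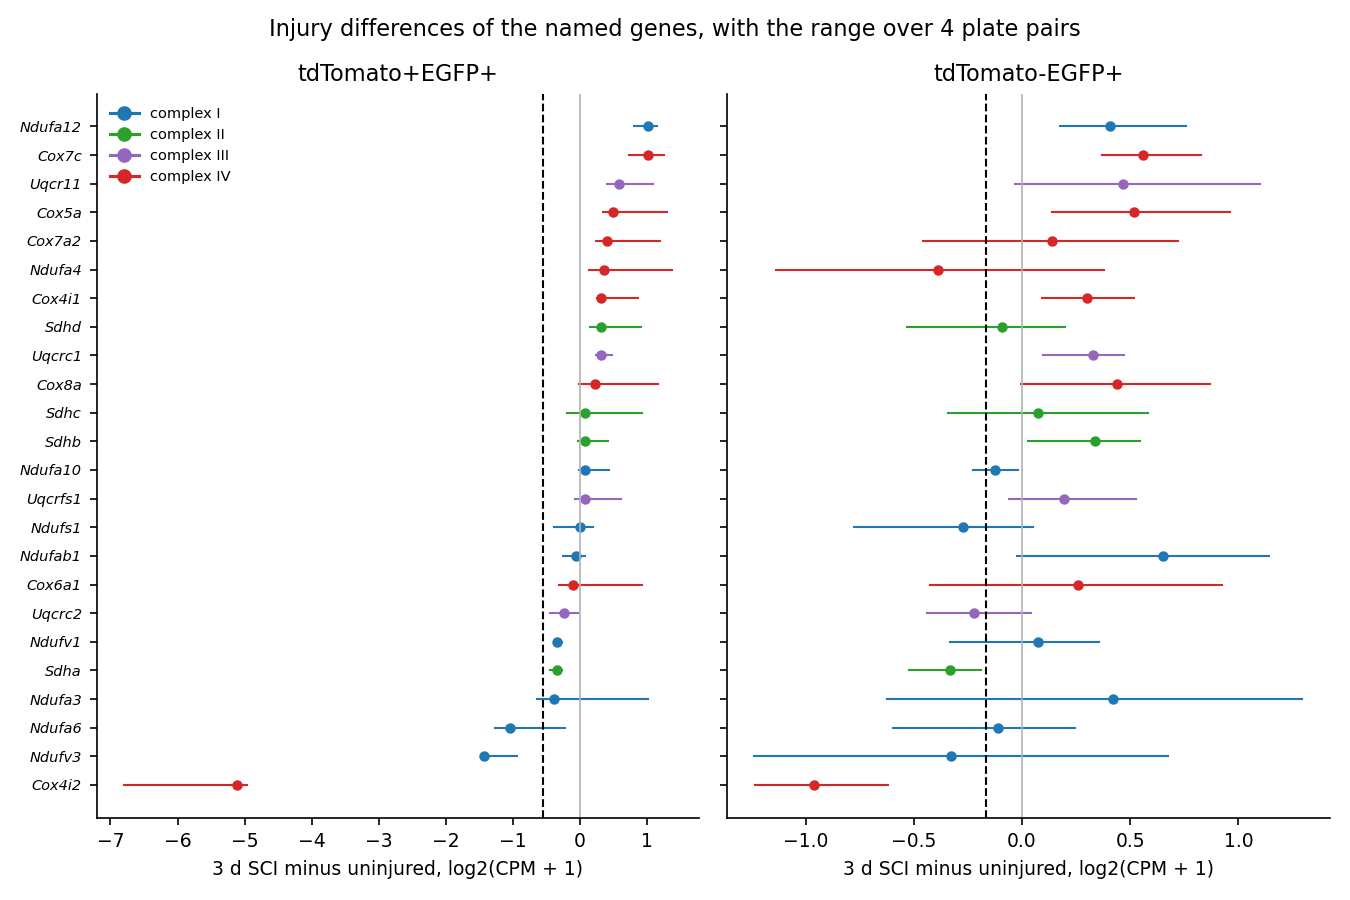
Injury differences of log2(CPM + 1) of 24 named members (points, group sums) with the range over the 4 plate pairs (lines) in tdTomato+EGFP+ (left) and tdTomato-EGFP+ cells (right), on different x scales, with the median of all genes dashed. *Cox4i2* is lowest in both panels at -5.11 and -0.96. *Ndufa12* and *Cox7c* lie above 0 in all pairs of both, as the rule that named them requires.

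In tdTomato-EGFP+ cells 0 members were called higher and 0 lower after injury, where 9.11% of all genes tested were called higher and 14.5% lower. The median over members was 0.13, against -0.17 over all genes, with plate pairs from -0.34 to 0.57, and 50 of 60 members lay above the median gene. Complex IV had a median of 0.33 (-0.07 to 0.87), complex III of 0.27 (-0.27 to 0.71), complex I of 0.07 (-0.44 to 0.48) and complex II of -0.01 (-0.29 to 0.19; 0.27 or 0.23 with TMM or DESeq2 size factors), so that every complex crossed 0 over the pairs. *Cox4i2*, at 217.8 and 262.1 CPM before and 110.7 and 141.5 CPM after injury, differed by -0.96 (-1.24 to -0.62), just below the size for a call, and it passed that size without plate 209 (-1.04) and without plate 215 (-1.16). Over all alternatives run this difference ranged from -1.16 to -0.59.

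*Cox7c* was at 31.7 and 37.9 CPM before and at 49.3 and 57.1 CPM after injury (0.56, 0.37 to 0.83), *Cox5a*, a matrix-side subunit of complex IV, at 101.4 and 127.3 CPM before and 140.1 and 198 CPM after (0.52, 0.14 to 0.96), and *Ndufa12* at 33.3 and 42.5 CPM before and 48.2 and 57.1 CPM after (0.41, 0.18 to 0.76). None of the 3 overlapped between conditions, which the rule that named them (1 sign in all plate pairs) required. *Sdha*, the flavoprotein that oxidises succinate, was at 691 and 659 CPM before and at 480 and 578 CPM after injury (-0.33, -0.52 to -0.19). With TMM or DESeq2 size factors *Sdha* stood at -0.05 or -0.09. *Ndufa10*, another accessory subunit of complex I, had a difference of -0.13 (-0.23 to -0.02), which was 0.16 or 0.12 with those factors.

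Within the pericyte range of tdTomato-EGFP+ cells complex III was at 1353 and 1409 CPM on the uninjured and 1539 and 2057 CPM on the injured plates, without overlap. Complex IV was at 1565 and 1923 CPM on the uninjured plates and at 1793 and 2558 CPM on the injured ones, which overlapped, and complex I at 3652 and 4156 against 3454 and 5096 CPM. By total counts *Ndufa4* differed by -1.05 there, against -0.39 in all tdTomato-EGFP+ cells.

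The injury differences of the 2 populations were then set against each other. *Cox4i2* and *Ndufv3* were called lower in tdTomato+EGFP+ cells by this measure and 0 members higher, where 20.4% of all genes tested were called lower and 3.91% higher. For *Cox4i2* the difference of differences was -4.15 (-6.04 to -3.88 over the plate pairs) and for *Ndufv3* -1.10 (-1.62 to -0.23). The value of *Ndufv3* was -0.43 without plate 215 and -0.90 without plate 209. In tdTomato-EGFP+ cells *Ndufv3* was at 83.6 and 144.2 CPM before and at 60.6 and 134.3 CPM after injury, which overlapped, and its injury difference there ran from -1.24 to 0.68. *Ndufa6* had a difference of differences of -0.93 (-0.92 to -0.21). *Ndufa4* lay at 0.74 in the sums and at 0.99 to 1.28 over the pairs, *Ndufa12* at 0.61 (0.27 to 0.76) and *Cox7c* at 0.46 (0.15 to 0.63). Over all members the median was -0.22 in the sums and 0.05 to 0.16 over the plate pairs, and with TMM or DESeq2 size factors it was 0.17 or 0.35.

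The catalytic and core subunits given here were not called after injury by total counts. In tdTomato+EGFP+ cells *Ndufv1* was at 218 and 206 CPM before and 167 and 172 CPM after injury (-0.33, -0.38 to -0.26), and *Sdha* at 624 and 558 CPM before and 463 and 458 CPM after (-0.34, -0.45 to -0.27). By total counts both were lower on each injured plate than on each uninjured plate, but with TMM or DESeq2 size factors *Ndufv1* stood at 0.34 or 0.48 and *Sdha* at 0.34 or 0.48. *Ndufs1* was at 139.3 CPM before and 139.7 CPM after injury (0.00), and *Sdhb*, the iron-sulfur subunit of complex II, at 275 and 291 CPM. *Uqcrc1*, a core subunit of complex III, was at 509 and 464 CPM before and 600 and 649 CPM after injury in tdTomato+EGFP+ cells (0.32, 0.24 to 0.48) and at 563 and 474 CPM before and 602 and 657 CPM after in tdTomato-EGFP+ cells (0.33, 0.10 to 0.47). In tdTomato+EGFP+ cells *Uqcrc1* stood at 0.99 with TMM and at 1.13 with DESeq2 size factors, where it was called higher, as was *Sdhd* (0.99 and 1.13). Its partner *Uqcrc2* was lower by total counts, at 281 CPM before and 239 CPM after in tdTomato+EGFP+ (-0.24) and at 315 and 269.9 CPM in tdTomato-EGFP+ cells (-0.22), and higher with TMM (0.44 and 0.06) and DESeq2 size factors (0.58 and 0.02). *Uqcrfs1*, the Rieske iron-sulfur protein, was at 175, 184, 184 and 211 CPM in the 4 groups.

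Of the other isoforms of complex IV, the forms best known from heart and skeletal muscle were low. *Cox7a1* was at 4.40, 2.31, 0.48 and 2.77 CPM in the 4 groups, and made up 3.71%, 2.00%, 0.317% and 2.17% of the counts it shared with *Cox7a2*. It was thus lowest in the group that was lowest in *Cox4i2*, from 15 counts, and it had no count in uninjured tdTomato-EGFP+ cells of plate 209. *Cox7a2* itself was at 114.2, 113.2, 151.3 and 124.5 CPM. *Cox6b2*, known from testis, was at 8.25, 5.06, 2.99 and 8.62 CPM. *Cox8b* had 2, 12, 1 and 0 counts and *Cox7b2* 14, 2, 5 and 1 counts, beside *Cox8a* at 192, 162, 223 and 221 CPM. *Ndufb4*, the complex I member below the filter, was at 8.20, 4.72, 5.01 and 5.38 CPM. *Cox6a2* was not among the members, and its partner *Cox6a1* was at 206, 189, 192 and 226 CPM.

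Lists of genes around the chain were compared in the same way, by total counts. Of all genes tested, 10.4% were called higher and 32.9% lower after injury in tdTomato+EGFP+ cells. In tdTomato-EGFP+ cells 9.11% were called higher and 14.5% lower. Between the sorts, tdTomato+EGFP+ cells had 3.63% of all genes called higher in uninjured cord. At 3 days after SCI the shares were 3.65% higher and 19% lower. Of the assembly factors of complex I, 13 were tested and 1, *Ndufaf3*, was called, at 60.6 CPM before and 24.03 CPM after injury in tdTomato+EGFP+ cells (-1.30, -1.58 to -1.16). Of those of complexes II to IV, 21 were tested. *Surf1*, needed to build complex IV, was called lower after injury in tdTomato+EGFP+ cells, from 149.4 to 41.3 CPM (-1.83), and in tdTomato-EGFP+ cells, from 124.6 to 56.4 CPM (-1.13). *Sdhaf3* was called lower in tdTomato+EGFP+ cells (-1.27), and *Cox19*, a copper-binding factor, was called higher in uninjured tdTomato+EGFP+ than tdTomato-EGFP+ cells, at 60.4 against 27.9 CPM (1.09). *Cycs*, cytochrome c itself, was at 49.2 and 56.1 CPM in the uninjured and 193 and 83.95 CPM in the injured groups, and was called higher after injury in tdTomato+EGFP+ cells (1.95, 1.35 to 2.05) and between the injured populations (1.19). *Cyc1*, which hands electrons to it within complex III, was at 174, 210, 229 and 191 CPM in the 4 groups and was not called.

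Of 17 ATP synthase genes tested, *Atp5g1* and *Atp5g2*, which encode the same mature ring subunit, were called higher after injury in both populations. Over all genes tested, 10.4% were called higher after injury in tdTomato+EGFP+ and 9.11% in tdTomato-EGFP+ cells. *Atp5g1* went from 54.7 to 175 CPM in tdTomato+EGFP+ (1.66) and from 51.9 to 108.2 CPM in tdTomato-EGFP+ cells (1.04), and *Atp5g2* from 21.7 to 66.1 CPM (1.57) and from 19.8 to 41.4 CPM (1.03). The list had a median injury difference of 0.57 (0.31 to 1.27) and 0.39 (-0.13 to 1.09). Of 8 mitochondrially encoded chain genes tested, *mt-Nd1*, *mt-Cytb* and *mt-Co1* were called higher after injury in tdTomato+EGFP+ cells (1.38, 1.02 and 1.05), but their counts differed between plates: mitochondrially encoded CPM per member CPM was 1.36 and 1.62 on plate 211 and 0.59 and 0.57 on plate 215 in tdTomato+EGFP+ and tdTomato-EGFP+ cells. Of 12 TCA cycle genes, *Cs* (citrate synthase; 211 to 429 CPM) and *Mdh2* (malate dehydrogenase; 389 to 814 CPM) were called higher after injury in tdTomato+EGFP+ cells, and *Ogdh* was called lower in tdTomato+EGFP+ than tdTomato-EGFP+ injured cells (115.5 against 248 CPM). Of 7 regulators of mitochondrial biogenesis tested, *Ppargc1b*, a transcriptional coactivator, was called lower after injury in tdTomato+EGFP+ (29.03 to 4.05 CPM, -2.57) and tdTomato-EGFP+ cells (38.2 to 12.7 CPM, -1.52).

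Ribosomal protein and proliferation genes are given beside the chain. Of 81 ribosomal protein genes tested, 76 were called higher after injury in tdTomato+EGFP+ and 48 in tdTomato-EGFP+ cells. Over all genes tested these calls were 10.4% and 9.11%. The summed level of the ribosomal protein genes was 16019, 13771, 68065 and 29412 CPM in the 4 groups. All values in CPM are shares of a total that holds these counts. The 10 proliferation genes went from 126.8 to 2071 CPM in tdTomato+EGFP+ and from 90.9 to 1239 CPM in tdTomato-EGFP+ cells. The part of these groups in the member differences was not tested, apart from the alternative that left mitochondrial and ribosomal protein counts out of the totals.

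Promoter windows, from 250 bases before to 50 after the gene start (RefSeq, GRCm38.p6), were found for 54 members. The NRF1 motif GCATGCGC, searched on both strands, was in 7 of them (12.96%, against 2.80% of all 27025 promoters), those of *Cox6a1*, *Ndufa11*, *Ndufa6*, *Ndufa8*, *Sdhb*, *Uqcr11* and *Uqcrc1*. The GABPA motif CCGGAAGT was in 4 (7.41%, against 4%) and the YY1 motif AAGATGGCG in 5 (9.26%, against 1.49%). These matches are a description of letters in a window, and members with an NRF1 match went both ways after injury in tdTomato+EGFP+ cells, as *Ndufa6* (-1.04) and *Uqcr11* (0.58) show. The upstream bases outside the annotated gene are shown for the 2 complex I genes called lower, *Ndufa6* (chr15:82354323-82354411, minus strand) with its NRF1 match in capitals and *Ndufv3* (chr17:31519995-31520114, plus strand) without any of the 3 motifs in its window.
Ndufa6: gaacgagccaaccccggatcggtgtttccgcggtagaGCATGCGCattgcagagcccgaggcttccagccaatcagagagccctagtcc
Ndufv3: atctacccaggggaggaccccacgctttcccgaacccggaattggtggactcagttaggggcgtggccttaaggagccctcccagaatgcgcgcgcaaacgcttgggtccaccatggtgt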

How the data were processed

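The authors sorted single cells into 384-well plates, made Smart-seq3 libraries, sequenced them on an Illumina instrument, and deposited 1 matrix of counts, whole numbers by gene and cell. The submitters' notes name mm10; the aligner, the counter, the annotation and the kind of count (reads or molecules) are not given in the sources used here. PCR reads are not independent molecules, and strand and multi-mapping rules are not given. Of 1968 cell columns, 503 matched the labels and 1465 were not used. Spike-in rows (92, 0.0336% of counts) were left out.

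Cells with 200 or more genes and under 20% mitochondrial counts were kept, without cells above 1 for *Gfap* or *Ptprc*, or above both 1 and their *Pdgfrb* level for *Pecam1*, as ln(1 + counts per 10000). These steps removed 1, 0 and 34 cells. Sorting was into single wells and no doublet caller was run. Counts were summed per group and per plate, scaled to CPM over all genes and compared as log2(CPM + 1), which understates differences of low genes. TMM factors (edgeR 4.0.16) and size factors (DESeq2 1.42.0) were used for scaling only, as alternatives, and no model was fitted. Cells near the cut of the marker ranges had a score difference under 0.25. Shares with a count were taken after thinning to 20000 counts per cell, leaving out 10, 14, 22 and 1 shallower cells of the 4 groups in the order of the report. Group counts were 25645409 to 38406035.

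Members named are, per comparison, those called and the 3 with the largest difference in each direction and 1 sign on all plates or pairs, plus fixed catalytic subunits and isoform pairs. The result of 1 of these subunits is not reported here. That these members be described, and the lists and rules, were chosen with earlier results of these data known, while single members follow from their symbols and a count on plate 211. Lengths and the positions of *Cox4i1* and *Cox4i2* came from GENCODE M21. Analyses used Python 3.11.15 and R 4.3.3.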

Additional observations from a re-analysis of the deposited data

Results flagged for a closer look

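*Ndufb1-ps*, a pseudogene symbol left out of the members, had 1003 counts, all of them on plate 211, in data outside the comparisons. There were 806 in injured tdTomato+EGFP+ cells of that plate (27.4 CPM) and 197 in injured tdTomato-EGFP+ cells (16.1 CPM). No count was seen on plates 209, 213 and 215, where 3 counts would be 0.134 to 1.79 CPM, and *Ndufb1* itself had no count on any plate. Plate 211 also differs from the other plates in which gene symbols hold counts, and the part of that difference in these counts was not tested.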

How the results depend on the processing

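Every comparison rests on 1 sample per group and 2 plates per condition, and plate 211 against 215 moved the members by more than most group differences. *Cox4i2* was called lower between the injured populations and after injury in tdTomato+EGFP+ cells under all alternatives run, at -6.02 to -3.12 and -6.74 to -3.95. No called value changed sign. The upper limit of 1200 detected genes could be computed only for uninjured cells and left 15 members tested. No paired analysis was possible because each group is 1 sample whose replicate numbers only name cells, so that there is no test to block; both sorted populations lay on every plate, and the report gives their differences within plates. Totals over genes with a count on every plate, chosen after seeing the data, changed none of the medians over members or counts of calls beyond the limits used here. Where a value moved, the cause was not tested.

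For the uninjured sort the median over members (0.07) was 0.0587 with TMM, 0.0240 with DESeq2 factors, 0.0722 without mitochondrial and ribosomal protein counts in the totals, 0.0615 with a pseudocount of 10, 0.10 without the filter, 0.18 as a mean over cells, 0.12 with equal plates, 0.0921 without the *Pecam1* rule, 0.0837 with cells of 20000 or more counts, 0.10 without plate 209 and 0.10 without plate 213, and 0.22 under the gene limit. Calls higher (0) were 3 as a mean over cells, 1 without plate 209, 4 under the gene limit and 3 at a cut of 0.5, and calls lower (0) were 3 under the gene limit. Among all genes tested, calls higher were 3.89% as a mean over cells, 7.74% without plate 209, 14.2% under the gene limit and 11.2% at 0.5. Calls lower among all genes were 20.5% under the gene limit.

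For the sort at 3 days the median (-0.18) was 0.19 with TMM, 0.34 with DESeq2 factors, -0.12 without mitochondrial and ribosomal counts, 0.0449 as a mean over cells, 0.19 with equal plates, 0.18 without plate 211 and 0.21 without plate 215. Calls higher (0) were 2 with TMM, 3 with DESeq2 factors, 1 as a mean over cells, 1 with equal plates, 1 without plate 211, 1 without plate 215 and 3 at 0.5, with *Ndufa4* among them. Calls lower (1) were 3 without the filter and 2 at 0.5. Among all genes tested, calls higher were 7.8% with TMM, 10.9% with DESeq2 factors and 4.4% as a mean over cells. They were 4.77% with equal plates, 7% without plate 211, 5.34% without plate 215 and 9.86% at 0.5. Calls lower among all genes were 16.4% without the filter and 36.6% at 0.5.

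For injury in tdTomato+EGFP+ cells the median (-0.05) was 0.62 with TMM, 0.76 with DESeq2 factors and 0.52 without plate 211. Calls higher (2) were 9 with TMM, 17 with DESeq2 factors, 0 with a pseudocount of 10, 0 with equal plates, 1 without the *Pecam1* rule, 0 without plate 209, 8 without plate 211 and 4 at 0.5. Calls lower (3) were 1 with TMM, 1 with DESeq2 factors, 5 without the filter and 1 without plate 211. Over all genes tested, calls were 1066 higher and 3379 lower, 2129 and 1794 with TMM, and 2454 and 1557 with DESeq2 factors. Among all genes, calls higher were 8.42% with a pseudocount of 10, 11.9% with equal plates, 10.5% without the *Pecam1* rule and 10.9% without plate 209. They were 14.6% without plate 211 and 17.2% at 0.5. Calls lower among all genes were 29.3% without the filter and 31.6% without plate 211.

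For injury in tdTomato-EGFP+ cells the median (0.13) was 0.42 with TMM, 0.38 with DESeq2 factors and, with the opposite sign, -0.26 without plate 215. Calls higher (0) were 2 with TMM, 1 with DESeq2 factors, 1 without plate 213, 3 without plate 211 and 2 at 0.5, and calls lower (0) were 1 without plate 209, 2 without plate 215 and 1 at 0.5. Among all genes tested, calls higher were 14.3% with TMM, 13.3% with DESeq2 factors, 12.2% without plate 213, 11.9% without plate 211 and 16.6% at 0.5. Calls lower among all genes were 16.7% without plate 209, 19.7% without plate 215 and 28.1% at 0.5. For the difference of the injury differences the median (-0.22) was 0.17 with TMM, 0.35 with DESeq2 factors, -0.16 without mitochondrial and ribosomal counts, -0.0674 as a mean over cells, 0.10 with equal plates, 0.0788 without plate 211 and 0.15 without plate 215. Calls higher (0) were 1 with TMM, 3 with DESeq2 factors, 1 with equal plates, 1 without plate 211, 1 without plate 215 and 2 at 0.5, and calls lower (2) were 1 with TMM, 1 with DESeq2 factors, 4 without the filter, 1 as a mean over cells, 1 with equal plates, 1 without plate 215 and 6 at 0.5. Among all genes tested, calls higher under these settings, in that order, were 8.31%, 11.8%, 4.85%, 7.22%, 5.72% and 9.08%. Calls lower were 12.9%, 10.4%, 19.3%, 21.9%, 20.2%, 18.6% and 32.9%.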
